A study of Mus musculus with 4 samples.

Results

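The 2 libraries compared here map open chromatin in 7438 cells without hormone and after both hormones together. The 7438 line is a mouse mammary cell line that carries a GFP-tagged glucocorticoid receptor (GFP-GR) and a Cherry-tagged estrogen receptor (Ch-ER), both driven by a tetracycline-regulated promoter, so that receptor levels are those of the transgenes and not only of the cells' own genes. All cells, the untreated ones included, were plated 48 h before the experiment in medium with charcoal-dextran serum, and tetracycline was withdrawn 24 h before hormone. The untreated cells received no hormone. The Dex+E2 cells received 100 nM dexamethasone and 100 nM estradiol for 30 min. Cells given dexamethasone alone (Dex, 100 nM) or estradiol alone (E2, 100 nM) for 30 min are used for values set beside those of the compared libraries. Since only 1 library stands for each condition, no spread between replicates is known, no p-value was computed, and all values are descriptions.

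In DNase-seq, nuclei are digested with DNase I, which cuts DNA most readily where nucleosomes are displaced or loosely bound. The glucocorticoid receptor and the estrogen receptor are ligand-activated transcription factors of the nuclear receptor family. Dexamethasone binds the former and brings it into the nucleus, and estradiol binds the latter. Once bound to their response elements, both receptors recruit coactivators and chromatin remodelling complexes, which can open sites that were closed and strengthen sites that were already accessible. Open chromatin before hormone is known to guide where the glucocorticoid receptor binds in mammary cells.

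The comparison takes the regions of the deposited Dex+E2 list and of the deposited untreated list, 115940 of the 202687 regions in the 4 lists of the series. The Dex+E2 list held 50061 regions that covered 29.9 Mb, and the untreated list 65879 regions that covered 45.3 Mb. Each region has a maximum tag density (MaxD, its summit) and an average tag density (AveD, its mean over the region), both in the authors' scaled units. If the smallest step between densities stands for 1 tag, the median region had 36 tags at its summit in the Dex+E2 and 35 in the untreated list. Regions of both lists that overlapped by at least 1 bp were taken as shared. A Dex+E2 region without such an overlap is called gained, and an untreated one lost. A region absent from a list did not pass the authors' threshold in that library, and its density there is not known. Positions are in mm9 as deposited. Genes near the regions, and with them the markers of mammary cells, were not analysed here.

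The lists shared a large common core, and most regions found in 1 of them were weak and narrow. There were 15808 gained regions (31.6% of the Dex+E2 list, Wilson 95% interval 31.2 to 32.0) and 33419 lost regions (50.7% of the untreated list, 50.3 to 51.1). Chaining the overlapping regions gave 32261 shared sites. Gained regions covered 6.33 Mb, which is 21.2% of the Dex+E2 bases, and lost regions 15 Mb or 33.0% of the untreated bases. The median gained region had a MaxD of 5.67, an AveD of 1.34 and a width of 358 bp, against 10.7, 2.67 and 632 bp for Dex+E2 regions with a counterpart. The median lost region had 6.12, 1.52 and 433 bp, against 19.1, 4.51 and 805 bp. The intervals on shares cover counting error only and treat regions as independent.

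The share without a counterpart fell steeply with density in both lists, and more steeply among untreated regions. Of the Dex+E2 regions with a MaxD under 5, 76.7% (75.7 to 77.6) were gained. This share was 36.8% from 5 to 10, 11.1% from 10 to 20, 3.52% from 20 to 40 and 1.01% (0.683 to 1.48, 25 of 2481 regions) at 40 and over. Lost regions made up 92.2% (91.7 to 92.7) of untreated regions under 5, 75.8% from 5 to 10, 29.6% from 10 to 20 and 2.10% from 20 to 40. Only 4 of the 7305 untreated regions at 40 and over were lost (0.0548%, 0.0213 to 0.141). Below a density of 20 the untreated list therefore had the larger share without counterpart, and from 20 upwards the Dex+E2 list had it. With 1 density scale for both lists this order depends on the authors' scaling, since shared sites had lower densities in the Dex+E2 library.

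Width gave a similar gradient. Among Dex+E2 regions under 300 bp 74.0% were gained, and among those of 1000 bp and over 1.96% (81 of 4131). Among untreated regions these shares were 92.8% and 4.56% (506 of 11087). Width still separated regions of like density. Of Dex+E2 regions with a MaxD from 5 to 10, 63.4% were gained when they were under 300 bp wide, 43.1% from 300 to 500 bp, 20.6% from 500 to 1000 bp and 5.94% (12 of 202) at 1000 bp and over. For untreated regions of the same density, 89.6%, 82.2%, 64.9% and 41.9% were lost in the same order of widths.

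**Figure D1:**
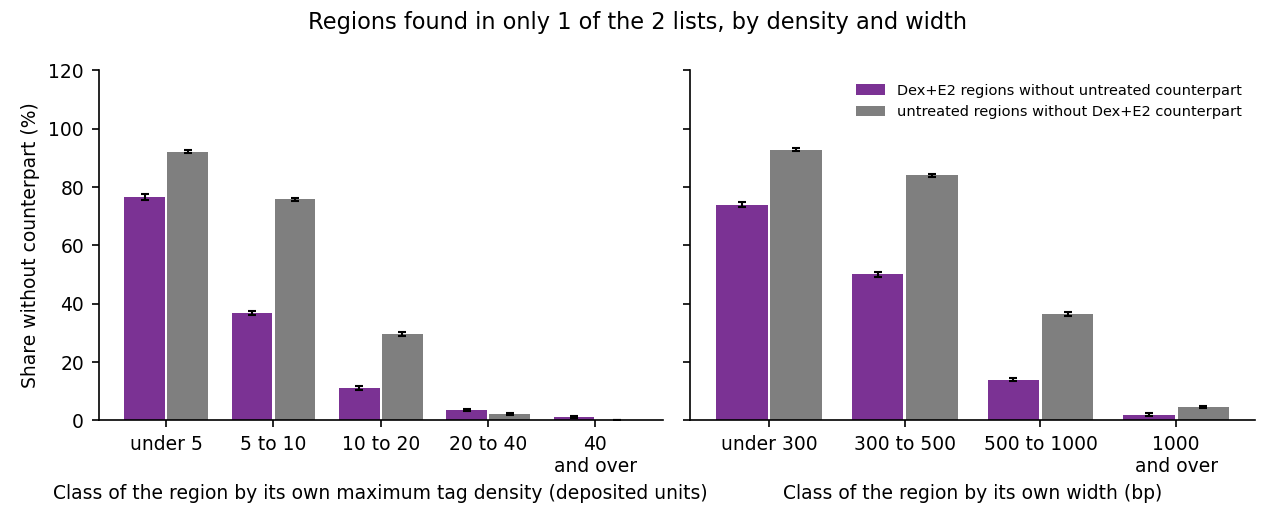
Share of regions without a counterpart in the other list (%, bars from 0, with Wilson 95% intervals) against the region's own maximum tag density (left) or width (right), for the Dex+E2 list (purple) and the untreated list (grey). The shares fall from 76.7% and 92.2% in the lowest density class to 1.01% and 0.0548% in the highest.

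Gained regions were seldom at the edge of an untreated region. The median distance to the nearest untreated region was 11.1 kb, 10.6% of gained regions lay within 1 kb of one, and 327 (2.07%) lay within 150 bp. The 223 gained regions with a MaxD of at least 20 were closer to untreated open chromatin, with a median of 3.64 kb and 180 of them (80.7%) within 10 kb, against 47.6% of all gained regions. Of the 183 lost regions at this density, 128 (69.9%) lay within 10 kb of a Dex+E2 region, against 41.5% of all lost regions. The median distance of the 183 was 5.88 kb, against 14.5 kb for all lost regions. Near misses were few in these sets, since 8 of the 223 and 0 of the 183 lay within 150 bp of a region of the other list.

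The densest gained region was chr5:144305494-144306418. Its summit held 360 tags, a MaxD of 81.7 (exact Poisson 95% interval 73.5 to 90.6), its AveD was 19.7 over 924 bp, and the nearest untreated region was 1.66 kb away. The same place was listed at a MaxD of 67.6 after Dex and 13.6 after E2. At chr4:59348453-59349795 the Dex+E2 MaxD was 80.3 (72.2 to 89.1) and the AveD 15.1 over 1342 bp, with 115 after Dex and no listing after E2. The Poisson intervals cover counting error only and say nothing about the spread between libraries.

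At 3 other gained regions E2 alone gave a low value or no listing. At chr8:129330987-129331941 the MaxD was 69.9 (62.3 to 78.1) after Dex+E2 and 54.1 after Dex. At chr12:80453055-80454107 it was 64.7 (57.4 to 72.6) and 79.3. The region chr15:25656269-25657185 reached 59.0 (52.0 to 66.6) after Dex+E2, 47.3 after Dex and 9.40 after E2. In this group the AveD after Dex+E2 ran from 13.3 to 14.4, and the deposited Z scores from 66.7 to 76.5.

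A smaller group stood higher after E2 than after Dex. At chr4:47510430-47511420 the MaxD was 58.5 (51.6 to 66.1) after Dex+E2, 22.0 after E2 and 11.02 after Dex. At chr4:134657905-134659103 it was 51.7 (45.2 to 58.9), 26.8 and 12 in the same order. These are deposited values, and how the 3 hormone libraries compare in such places depends on their scaling. The region chr15:25572827-25573657 reached 58.5 after Dex+E2, 33.1 after Dex and 31.2 after E2, and lay 54 bp from an untreated region, so that it no longer counted as gained when regions within 150 bp were taken as shared.

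The remaining 2 of the 10 densest gained regions had low Z scores for their density. The region chr11:3030593-3031166 had a MaxD of 64.0 and a Z score of 9.80, with 74.0 after Dex and 51.6 after E2. The region chr2:22507293-22507916 had 53.1 and 16.4, with 55.8 after Dex and no listing after E2. The other 8 had Z scores from 61.1 to 96.3. The eleventh region in this order had a MaxD of 49.7. All 10 places were listed after Dex and 6 after E2. The Dex list held 51251 regions and the E2 list only 35496, so a missing listing after E2 is not read as particular to a place. The shares of all gained regions listed after each hormone were not analysed here.

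Lost regions were weaker at the top than gained ones. The densest was chr1:81734475-81735592, with a MaxD of 46.4 (39.9 to 53.7) and an AveD of 9.11 over 1117 bp in untreated cells. It was listed at 14.0 after Dex and 7.80 after E2. At chr15:78636893-78638116 the untreated MaxD was 43.9 (37.6 to 50.9), with 13.5 after Dex and no listing after E2. At chr3:58145761-58146592 it was 40.6 (34.5 to 47.4), with 7.35 after Dex and 9.60 after E2. All 3 were thus lower wherever a hormone library listed them. The region chr1:24560214-24560767 (40.8, Z score 12.1) was listed in no hormone library, and the nearest Dex+E2 region was 58.6 kb away.

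The other 6 of the 10 densest lost regions reached a MaxD from 30.1 to 34.4 in untreated cells. Listed after E2 and not after Dex were chr12:88213091-88213810 (34.4 untreated, 10.2 after E2), chr10:85907310-85908580 (33.4 and 7.0) and chr4:59286089-59286784 (32.6 and 8.40). The region chr11:68858757-68859754 (33.4 untreated, 14.4 after Dex) and the region chr2:4260055-4261269 (30.1 and 10.8) were listed after Dex and not after E2. Both single hormone libraries listed chr6:114833152-114833871, at 15.2 after Dex and 9.20 after E2, against 32.9 untreated. Of the 10 places, 6 were listed after Dex and 6 after E2, in each case at a density below the untreated one. The shares of all lost regions listed after each hormone were not analysed here. The median site shared with the untreated list also had a lower density in each hormone library, as given further on, and the part of that shift in these differences was not tested. The next lost region had a MaxD of 29.1.

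**Figure D2:**
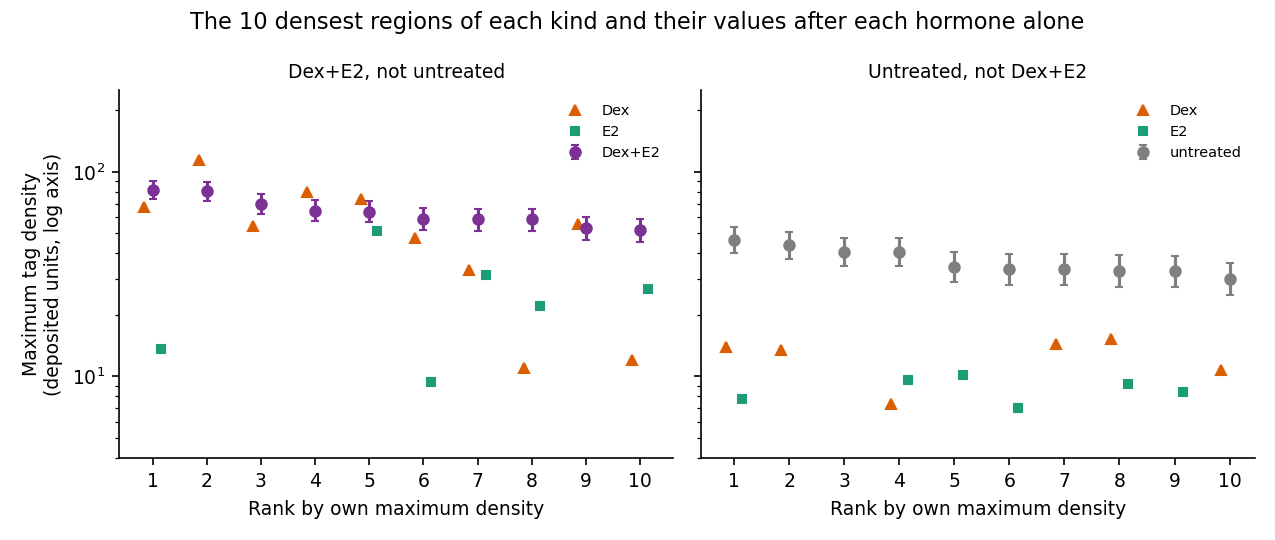
Maximum tag density (deposited units, log axis) of the 10 densest gained regions (left) and the 10 densest lost regions (right), by rank, with exact Poisson 95% intervals on the library that defines them, and the values after Dex alone and E2 alone where listed. The gained regions run from 81.7 to 51.7 and the lost ones from 46.4 to 30.1, and the deposited Dex value exceeds the Dex+E2 value in 4 of 10 gained regions.

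At shared sites the Dex+E2 library had lower densities as deposited. The median MaxD was 19.4 untreated and 10.9 after Dex+E2, and the median AveD 4.53 and 2.75. The median log2 ratio of Dex+E2 to untreated was -0.82 for MaxD (95% interval of the median -0.83 to -0.81), a ratio of 0.566, and -0.71 for AveD (-0.72 to -0.70), a ratio of 0.612. The Dex+E2 MaxD was higher at 3795 of 32261 sites (11.8%). The total to which each library was scaled is not given in the sources used here, and with 1 library per condition a general shift and the treatment cannot be told apart. Changes are therefore given relative to the median ratio, so that a relative log2 ratio of 0 means the typical shift.

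Relative to that median, 2436 sites (7.55% of shared sites) stood 2-fold or more above it after Dex+E2 and 679 (2.1%) 2-fold or more below it. As deposited, the split turned round, with 442 sites (1.37%) past the limit upwards and 11560 (35.8%) downwards. By AveD relative to its own median, 2164 sites (6.71%) were higher and 939 (2.91%) lower. Both measures called 1729 sites higher, which is 71.0% of the MaxD calls and 79.9% of the AveD calls. They called 477 lower, 70.3% and 50.8%.

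Higher sites were weak and lower sites strong in the untreated library. The median higher site went from a MaxD of 8.16 untreated to 12.7 after Dex+E2, and the median lower site from 39.3 to 9.76. Among the 11264 sites with a geometric mean MaxD of at least 20, 448 (3.98%) were higher and 329 (2.92%) lower. In this set the medians of the higher sites were 22.2 and 38.6, and those of the lower sites 58.2 and 14.5. The sites were called on these values, which describe the calls and support nothing further.

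**Figure D3:**
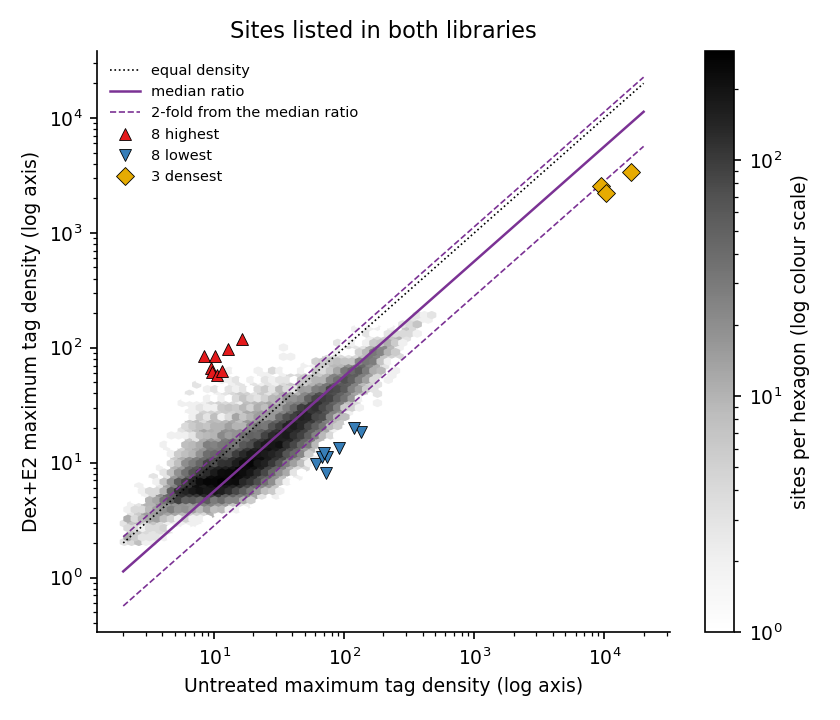
Maximum tag density after Dex+E2 against untreated at the 32261 shared sites (both axes logarithmic, grey scale for the number of sites), with the median ratio of 0.566, the 2-fold limits around it, and the named sites. The 8 highest sites lie at untreated densities from 8.42 to 16.3, and the 8 lowest at untreated densities from 60.2 to 134.

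The largest relative ratio was at chr7:117926315-117927250. Its MaxD was 8.42 untreated (5.79 to 11.8) and 85.3 after Dex+E2 (76.9 to 94.4), which is 17.9-fold relative to the median ratio. The AveD went from 1.36 to 19.9 (23.8-fold), and the region was 286 bp wide untreated and 935 bp wide after Dex+E2. After Dex alone the place stood at 83.5 and after E2 at 9.20. On the deposited scale the Dex and Dex+E2 values were thus close, and the E2 and untreated values were low. Similar patterns were seen at chr3:94717451-94718267 (9.69 untreated, 61.0 after Dex+E2, 52.7 after Dex, 9.60 after E2) and at chr12:76404928-76406074 (10.5, 58.3, 49.0 and 6.60 in the same order). These sites were 11.1-fold and 9.86-fold higher by MaxD and 12.1-fold and 14.3-fold higher by AveD. At chr4:64255821-64256908 the MaxD was 16.3 untreated, 118 after Dex+E2 (108 to 129) and 123 after Dex, with no listing after E2 (12.8-fold). All Dex and E2 values here are as deposited. The median log2 MaxD ratio over sites shared with untreated cells was -0.88 with Dex and -1.47 with E2. An E2 value close to the untreated one therefore lies above the typical shift of the E2 library.

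At a pair of sites the E2 library was the higher of the single hormones. The site chr12:16797067-16797819 had a MaxD of 9.44 untreated, 66.2 after Dex+E2 (58.9 to 74.3), 36.2 after E2 and 10.04 after Dex, 12.4-fold relative to the median ratio. Its AveD went from 2.67 to 22.3 and its width from 390 to 752 bp. At chr10:82566829-82567672 the values were 11.5 untreated, 62.8 after Dex+E2, 28.2 after E2 and 16.4 after Dex (9.68-fold). Both hormones alone were above untreated at chr5:113711652-113713143 (12.8 untreated, 96.6 after Dex+E2, 52.9 after Dex, 37.6 after E2, 13.4-fold) and at chr5:35978269-35979440 (10.2, 85.5, 60.7 and 18.4, 14.8-fold). The counting error of the relative log2 ratio of these 8 sites ran from 0.19 to 0.26, against ratios from 3.28 to 4.16. At 7 of the 8 the Dex+E2 region was the wider one, against 16.3% of all shared sites. It was the wider one at 72.1% of the 448 higher sites with a geometric mean MaxD of at least 20. At 1 of the 8 sites the Dex value exceeded the Dex+E2 value on the deposited scale.

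The 8 lowest sites lay less far from the median ratio than the 8 highest. At chr9:116127528-116128687 the MaxD was 72.9 untreated (64.7 to 81.9) and 8.17 after Dex+E2 (5.72 to 11.3), which is 5.05-fold lower relative to the median ratio, and the AveD went from 14.8 to 1.99. The region was 1159 bp wide untreated and 594 bp wide after Dex+E2. After Dex the place stood at 9.55 and after E2 at 10.2, so that all 3 hormone values were close together. At chr17:64027112-64028358 the MaxD was 134 untreated and 18.4 after Dex+E2, with 28.7 after Dex and 16.2 after E2 (4.12-fold lower). At chr13:111713802-111714975 it was 90.5 and 13.4, with 23.5 and 10.00 (3.83-fold lower).

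The same held at the other 5 of the 8 lowest sites, where each hormone alone also stood below untreated. So did the median site shared with untreated cells, at log2 MaxD ratios of -0.88 with Dex and -1.47 with E2. The part of that general shift in these values was not tested. At chr1:121205246-121206266 the MaxD was 74.0 untreated and 11.1 after Dex+E2, with 14.2 after Dex and 19.0 after E2. The site chr12:71813195-71814205 had 60.2 and 9.76, with 21.1 after Dex and 12.2 after E2. The site chr3:35129835-35131120 had 67.6 and 11.1, with 13.7 and 18.4. At chr2:145039312-145040765 the values were 70.4 and 12, with 19.6 and 11.4. At chr13:16830930-16832130 they were 118 and 20.2, with 43.6 and 22.0. At all 8 sites the Dex+E2 region was narrower than the untreated one, as it was at 83.5% of all shared sites. Of the 329 lower sites with a geometric mean MaxD of at least 20, 5 were wider after Dex+E2. The sites were chosen for their low Dex+E2 values, and the order of the 3 hormone libraries there depends on the scaling, so no order is read from it. All 3 comparisons with untreated cells use the same untreated library, so a high untreated value lowers their ratios together.

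The relative shift depended on density. In sites with a geometric mean MaxD under 10 the median relative log2 ratio was 0.41 for MaxD and 0.30 for AveD (9676 sites). It was -0.07 and -0.05 from 10 to 20 (11321 sites), -0.17 and -0.14 from 20 to 40 (7038), -0.18 and -0.16 from 40 to 80 (3181) and -0.20 and -0.23 at 80 and over (1045). Above 20 the MaxD classes thus differed little from each other, and the step lay between the weakest sites and the rest. A site counts as shared only if both regions passed the authors' thresholds, which keeps out sites too weak in either library. The part of this in the shift of the weakest class was not tested. The difference between the lowest and the highest class was 0.61 for MaxD. It was 0.91 with classes set by the untreated MaxD and 0.24 with classes set by the Dex+E2 MaxD, so its size depends on the library that sets the class.

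From a density of 10 upwards the spread around these medians shrank. The middle 80% of sites ran from -0.27 to 1.05 under 10, from -0.68 to 0.81 from 10 to 20, from -0.74 to 0.56 from 20 to 40, from -0.67 to 0.37 from 40 to 80 and from -0.59 to 0.22 at 80 and over. The median counting error in the same classes was 0.37, 0.28, 0.20, 0.14 and 0.10 on the log2 scale. The share of sites at least 2-fold higher was 11.9% under 10, 7.35%, 5.04%, 2.61% and 0.957% (10 sites) at 80 and over. The share at least 2-fold lower was 0.351% under 10, 2.79%, 3.44%, 2.04% and 2.11% (22 sites) in the same order.

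Sites of 2000 bp and over shifted differently by the 2 measures. Under 500 bp of merged width the median relative log2 ratio was 0.73 for MaxD and 0.60 for AveD (1453 sites), with none of these sites at least 2-fold lower. It was 0.10 and 0.04 from 500 to 1000 bp (19512 sites), -0.19 and -0.12 from 1000 to 2000 bp (10056) and -0.25 and -0.05 at 2000 bp and over (1240). The difference between the narrowest and the widest class was 0.98 for MaxD, 0.64 for AveD and 0.28 with MaxD and classes set by the width in the Dex+E2 list. Narrow sites were also weak, with median untreated MaxD values of 6.12 under 500 bp and 54.1 at 2000 bp and over. At like density the width classes still differed: from 10 to 20 the relative MaxD ratio was 0.62 under 500 bp (47 sites), -0.02 from 500 to 1000 bp (8099), -0.21 from 1000 to 2000 bp (2958) and -0.31 at 2000 bp and over (217). At a density of 80 and over they were closer together, with -0.16 from 500 to 1000 bp, -0.19 from 1000 to 2000 bp and -0.24 at 2000 bp and over.

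**Figure D4:**
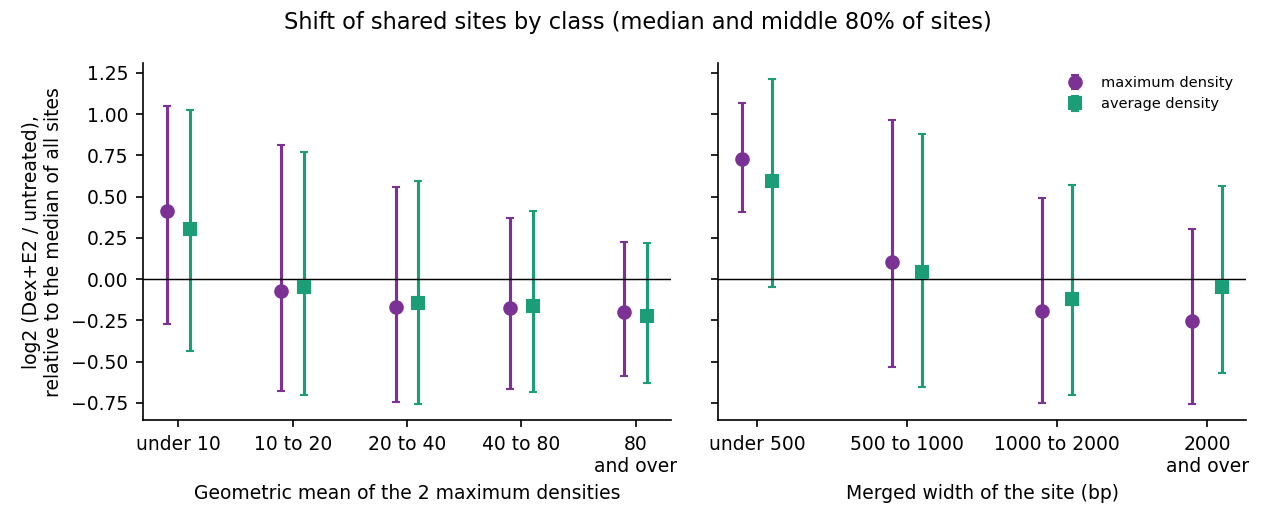
Relative log2 ratio of Dex+E2 to untreated at shared sites by class of density (left) and of merged width (right), for maximum density (circles) and average density (squares). Points are medians and bars span the middle 80% of sites, and the medians for maximum density go from 0.41 to -0.20 over the density classes and from 0.73 to -0.25 over the width classes.

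Regions were narrower after Dex+E2 at most shared sites. The median width of the densest region of a site was 808 bp untreated and 637 bp after Dex+E2, and the Dex+E2 region was the narrower one at 83.5% of sites. In the lowest density class the widths were 587 and 458 bp, and in the highest 1387 and 1078 bp. The product of AveD and width, which stands for the tags in a region, had a median ratio of 0.451, below the 0.612 of AveD alone. At the 2436 higher sites the order of widths was the reverse, with 543 bp untreated and 690.5 bp after Dex+E2, and 84.9% of them were wider after Dex+E2, against 16.3% of all shared sites. At the 679 lower sites the widths were 1074 and 648 bp. A region's width depends on how far its density exceeds the threshold of its own library, and the part of this in the widths was not tested.

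**Figure D5:**
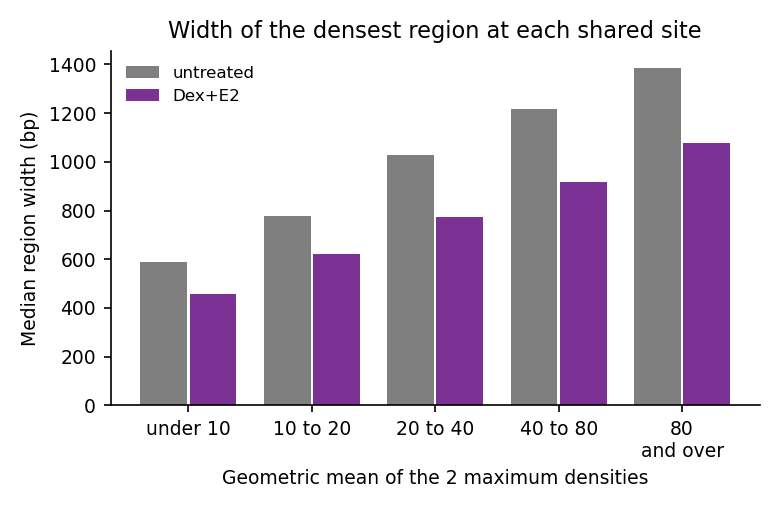
Median width (bp, bars from 0) of the densest region at each shared site in the untreated (grey) and Dex+E2 (purple) lists, by class of the geometric mean of both maximum densities. Widths rise from 587 to 1387 bp untreated and from 458 to 1078 bp after Dex+E2, and the Dex+E2 bar is the lower one in every class.

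The densest shared sites stood well below the median ratio. At chr13:85266243-85267370 the MaxD was 15878 untreated and 3413 after Dex+E2, with 7501 after Dex and 3270 after E2. The sites chr4:79648971-79649755 (9402 and 2556) and chr12:98299509-98300268 (10256 and 2221) followed. Relative to the median ratio these 3 sites were 2.63-fold, 2.08-fold and 2.61-fold lower. The 6 sites with a geometric mean MaxD of 1000 and over had a median relative log2 ratio of -1.17, against -0.34 for the 59 sites from 200 to 1000 and -0.19 for the 980 sites from 80 to 200. These limits were chosen after the values were seen.

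Chromosomes differed little in the shift of their shared sites. The median relative log2 MaxD ratio ran from -0.08 on chromosome X (782 sites) to 0.10 on chromosome 12 (1489 sites, 0.05 to 0.13). The share of gained regions was lowest on chromosome 11 at 24.3% (22.8 to 25.7) and highest on chromosome X at 43.4% (40.9 to 46.0). The share of lost regions was likewise lowest on chromosome 11 at 44.1% and highest on chromosome X at 63.4%. Densities followed the reverse order: the median MaxD was 12.2 untreated and 10.2 after Dex+E2 on chromosome 11, and 4.34 and 4.31 on chromosome X. The part of these weaker regions in the shares on chromosome X was not tested.

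Each hormone alone can be set beside these values, with the same untreated library as reference, so that the 3 comparisons are not independent and differences between them were not tested. The median log2 MaxD ratio over the sites shared with untreated cells was -0.88 with Dex (31828 sites), -1.47 with E2 (24574) and -0.82 with both. The share of these sites at least 2-fold lower relative to the median was 1.15% with Dex, 0.728% with E2 and 2.1% with both. The share at least 2-fold higher was 7.94%, 12.7% and 7.55%. Of all untreated regions, 51.1%, 62.5% and 50.7% had no counterpart in the same order. Such regions cannot count as lower, and the part of this in these shares was not tested. The lowest density class stood at 0.49, 0.77 and 0.41 in the same order, and the highest at -0.26, -0.26 and -0.20, so that the gradient with density was present in all 3 comparisons. Median widths were 823 bp untreated against 657 bp after Dex, and 879 against 601 bp after E2.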

How the data were processed

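The members, classes and rules were chosen with earlier results of these data known. Per the file headers, the deposited lists give for each region a maximum and an average tag density (signal values that the authors scaled per library), a Z score and a p-value. The Z score and p-value that the authors deposited refer to the background of a region's own library, so scores were used only to describe regions. The submitters' processing notes name CASAVA 1.8, without its role, and the build mm9. For aligner and region caller, nothing is given in the sources used here. The lists were called per library.

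Overlaps (1 bp) were chained into sites, and a site took the values of its region with the highest MaxD in each library. Ratios are log2 of Dex+E2 over untreated, without a pseudocount, since no listed density is 0. MaxD values were whole multiples of a step (0.255 untreated, 0.227 after Dex+E2, tolerance 0.02 tags), read as 1 tag for exact Poisson intervals. Intervals of medians come from binomial order statistics. All intervals are at the 95% level and cover counting error only. The overlap, ratio and step functions were tested on simulated lists. Named regions are the 10 densest gained and 10 densest lost, the 8 highest and 8 lowest shared sites with a geometric mean MaxD of at least 20, and the 3 densest sites. Alternatives covered the overlap rule, list length, thresholds, chromosome X, the pairing of regions, the measure, the scaling and the fold limit. With no mm9 genome or annotation used, gene lists, cell type markers, gene distances and motifs were not analysed here. Software was SciPy 1.17.1, pandas 2.3.3 and NumPy 2.4.6 under Python 3.11.15, with Matplotlib 3.10.9 for plots.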

Additional observations from a re-analysis of the deposited data

How the results depend on the processing

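No paired analysis was possible because each condition has 1 library and no result comes from a test. Counts of gained, lost and shared regions stayed within 1.5 times under all overlap rules, a common lowest Z score and without chromosome X. Within that band, requiring 50% of both regions shared gave 22704 gained regions (45.4% of the Dex+E2 list). It gave 38522 lost regions (58.5% of the untreated list) and 27357 shared sites. Lists of equal length gave 19025 lost regions. The denser 50% of each list (25030 Dex+E2 and 32939 untreated regions) gave 3593 gained (14.4%), 12341 lost (37.5%) and 20534 shared. The median log2 MaxD ratio moved beyond its narrow interval with 1-to-1 pairs (-0.81), with 50% of both regions shared (-0.80) and in sites of all 4 lists (-0.95). The AveD median moved in sites of all 4 lists only (-0.82). The counts of 2-fold higher and lower sites were 1481 and 346 in the 20755 sites of all 4 lists, a smaller set than the 32261 shared sites. They were 442 and 11560 as deposited, 6164 and 3671 at 1.5-fold, and 314 and 4 at 4-fold. Among the 11264 sites with a geometric mean MaxD of at least 20 they were 448 and 329. Relative to the median of those denser sites, a setting chosen after seeing the data, the counts over all 32261 shared sites were 3749 and 276. The gap between the lowest and the highest density class was 0.53 by AveD, 0.91 with classes set by the untreated and 0.24 by the Dex+E2 value. For width these gaps were 0.64, 1.13 and 0.28. The 4 sites over 4-fold lower were the leading 2 of the named ones and, outside that rule and chosen after their values were seen, chr3:83103286-83104885 (49.0 untreated, 6.35 after Dex+E2) and chrX:11942624-11943337 (31.1 and 4.08). For named sites no value changed sign with AveD of the same regions in place of MaxD. The other alternatives run there move all ratios by the same amount, too little to change the sign of any named one. Of the 10 densest gained regions 9 were left when regions within 150 bp counted as shared. The other alternatives could not lower this count, since they only removed possible counterparts or chromosome X, where none of the 10 lies. The causes of these changes were not tested, apart from the fewer regions or sites that a stricter rule leaves. Depth limits single weak sites most: the median counting error of 1 site was 0.37 on the log2 scale under a mean density of 10 and 0.10 at 80 and over.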

Other observations

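Stretches of the genome differed in the relative ratio of their shared sites. Of the 241 stretches of 10 Mb with at least 40 shared sites, 6 had a median relative log2 MaxD ratio of at least 0.3, while 90% of stretches lay between -0.15 and 0.20. These stretches were chosen after their values were seen. The stretch from 110 to 120 Mb of chromosome 12 held 274 shared sites, with a median of 0.39 (0.26 to 0.52), 49 higher and 5 lower sites. Its median MaxD was 15.4 untreated and 10.7 after Dex+E2, and its 82 sites with a geometric mean MaxD of at least 20 stood at -0.04. From 10 to 20 Mb of chromosome 8 there were 236 sites with a median of 0.54 (0.30 to 0.67), 43 of them higher and 2 lower, and its 92 denser sites stood at 0.36. The other 4 stretches held fewer sites: chromosome 5 from 10 to 20 Mb (0.71, 57 sites), chromosome 14 up to 10 Mb (0.53, 41 sites), chromosome 3 up to 10 Mb (0.48, 43 sites) and chromosome 12 from 20 to 30 Mb (0.38, 68 sites). Their denser sites stood at -0.90 (1 site), -0.67 (7), -0.16 (9) and -0.03 (21) in the same order. At denser sites only the chromosome 8 stretch of the 6 was above the median of all shared sites. All shared sites of that density had a median of -0.18, however, and the chromosome 3 stretch and both chromosome 12 stretches were above that value. On chromosome 8 the stretch from 19 to 20 Mb had 26 of 78 sites higher and 0 lower, at median MaxD values of 20.3 untreated and 20.3 after Dex+E2, so that the deposited densities there hardly differed. On chromosome 12, from 116 to 117 Mb, 19 of 47 sites were higher and 0 lower, at 6.89 and 7.03.

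Many wide untreated regions corresponded to several Dex+E2 regions. At 1746 shared sites 1 untreated region overlapped at least 2 Dex+E2 regions, and at 118 sites the reverse was seen. The former had a median untreated width of 1794 bp, against 754 bp for the densest Dex+E2 region, and relative log2 ratios of -0.23 for MaxD and 0.02 for AveD. The latter had 649 bp untreated and 1024.5 bp after Dex+E2, with ratios of 0.89 and 0.64. The 30334 sites with 1 region in each list had 0.02 for MaxD and -0.0041 for AveD.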
